A study of Mus musculus with 12 samples.

Results

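The genes described here encode 10 proteins that act directly downstream of the small GTPase ARF6: the phosphatidylinositol phosphate kinases Pip5k1a, Pip5k1b and Pip5k1c, the phospholipases D Pld1 and Pld2, the JIP scaffolds Mapk8ip3 and Spag9, the exocyst subunit Exoc5 and the adaptors Rab11fip3 and Rab11fip4. They were chosen by name as known ARF6 effectors, though with earlier results of these data known. All 10 were found among the 55487 genes of the count table. All 10 also had enough counts to be among the 16225 genes tested. RNA sequencing was done on 12 mouse tumors labelled as melanoma, with polyadenylated RNA and stranded libraries. In 6 tumors, called Arf6-null, the genotype was BrafCA with floxed Cdkn2a and floxed Arf6. In the other 6, called wild-type, it was BrafCA with floxed Cdkn2a and Arf6 left intact, so both groups share the Braf and Cdkn2a alleles. The labels name no Cre driver, age, sex or treatment. They do not say whether each tumor came from its own animal. The p-values treat the 6 tumors of a group as independent and could be too small if some shared an animal. They reflect only tumor-to-tumor spread, which may also be partly technical.

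ARF6 cycles between a GDP-bound and a GTP-bound form and works at the plasma membrane and on endosomes. In its GTP-bound form it recruits and activates PIP5 kinases, which make the lipid PIP2, and phospholipases D, which make phosphatidic acid, a lipid that stimulates PIP5 kinases in turn. It also binds scaffolds and adaptors that couple endosomes to motor proteins, to the exocyst tethering complex and to the recycling GTPase RAB11. These contacts are made by proteins, and transcript counts do not measure them.

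None of the 10 effector genes passed the test for a difference between Arf6-null and wild-type tumors. Across all 16225 tested genes, 1.15% passed at an edgeR adjusted p under 0.05. The genes nearest to the threshold were Pld2, at 74.1 ± 15.0 CPM in Arf6-null and 49.1 ± 8.67 CPM in wild-type tumors, and Spag9, at 144 ± 11.3 and 177 ± 19.6 CPM in Arf6-null and wild-type tumors (SD, n = 6 each). CPM are counts relative to library totals scaled by TMM, a normalization for composition. Pip5k1b had the largest log2 fold change, 1.80, on very low counts. At an unadjusted edgeR p under 0.05 these 3 of the 10 genes stood out, where 23.4% of all tested genes did. The Wald test of DESeq2 called 2 of the 10, Pld2 and Spag9, beside 11.8% of all genes it tested, and limma-voom with sample weights called 0 of the 10, beside 6.14% of all genes. At an edgeR adjusted p under 0.1, Pld2 and Spag9 passed, as did 8.38% of all tested genes.

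Arf6 checked the labels: it was at 12.2 CPM (lowest), 18.7 CPM (median) and 22.5 CPM (highest) in Arf6-null tumors, against 84.2, 107 and 147 CPM in wild-type tumors. Library totals were 21007954 to 45688253 counts in Arf6-null and 22211738 to 30326419 in wild-type tumors. Library numbers were 19 to 24 in Arf6-null and 1 to 6 in wild-type tumors. Another number in the sample titles ran from 19836 to 20570 in Arf6-null tumors. In wild-type tumors it ran from 5526 to 7657, except for 20681 in replicate 5. The labels do not say what these numbers mark. Anything that follows the library numbers cannot be told apart from the genotype, and the title numbers follow it in all but that tumor. The melanocyte markers did not match the tissue label well. Mlana had 0 counts in every library, and Tyr, Dct, Tyrp1 and Slc45a2 had 2 counts each over all 12. Sox10 had at most 33 counts in a library and Pmel had 10 to 50, while Mitf had 238 to 1239. Summed CPM of 12 skeletal muscle markers ran from 6.33 to 78.5 in Arf6-null and from 29.3 to 3536 in wild-type tumors, where replicates 3, 4 and 5 were highest. Mast cell markers summed to 5.68 to 102 CPM in Arf6-null and 46.3 to 569.9 CPM in wild-type tumors, and fibroblast markers to 2345 to 14625 and 9853 to 27059 CPM in Arf6-null and wild-type tumors. The sum of 4 Y-linked genes reached no more than 0.444 CPM in 4 tumors (Arf6-null replicate 6; wild-type replicates 3, 5 and 6). In wild-type replicate 1 it was 22.3 CPM, and in all remaining tumors it was 147.5 CPM or more. On the first principal component Arf6-null replicate 6 lay at -9.18 and wild-type replicate 2 at 10.5, and those libraries made the genotypes overlap there.

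**Figure D1:**
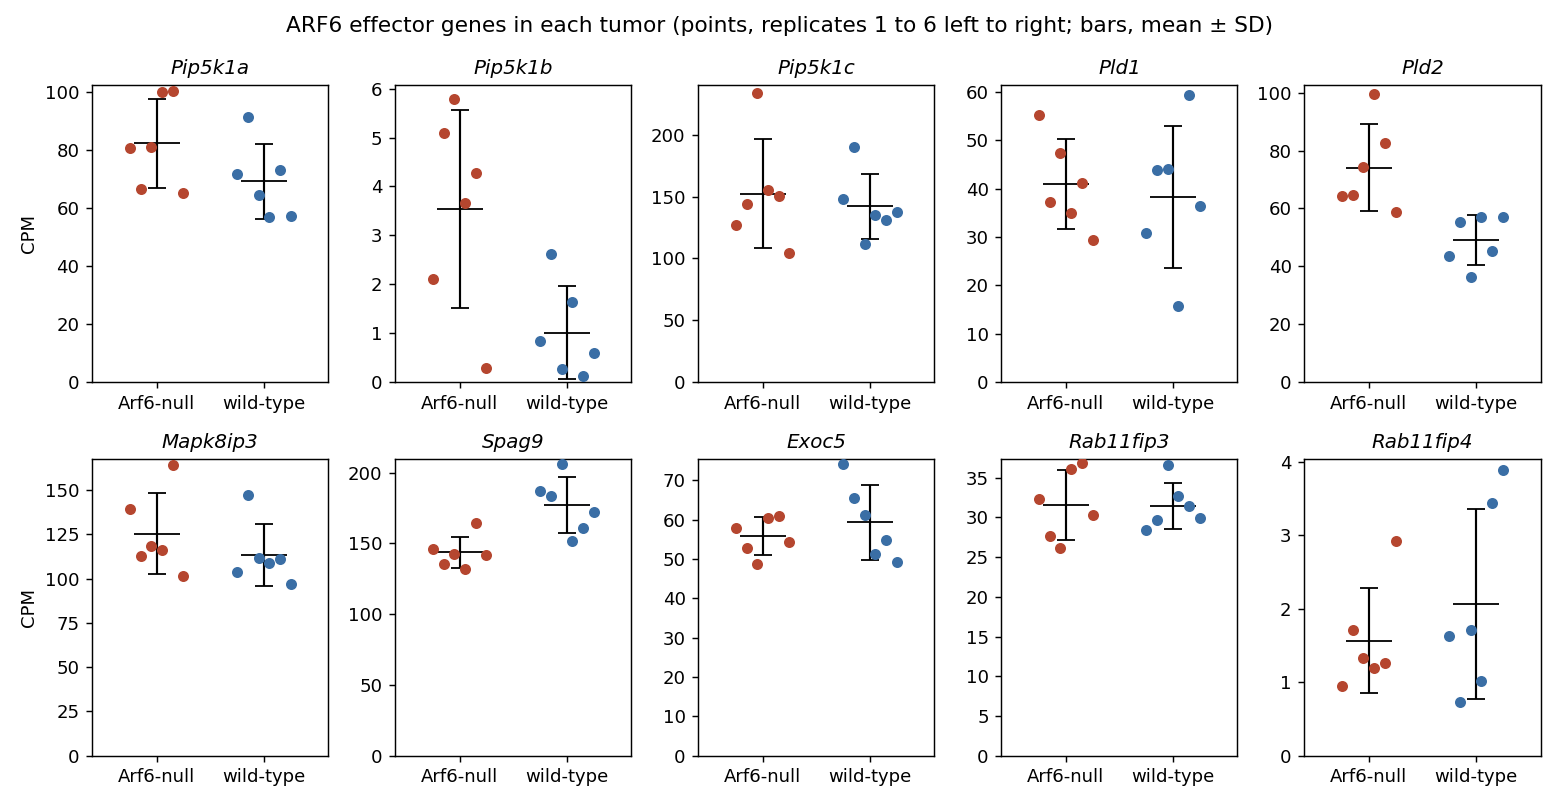
CPM of the 10 effector genes in each tumor, Arf6-null left and wild-type right, with points for replicates 1 to 6 and bars for the mean ± SD (n = 6 each). Pld2 is the gene whose 6 Arf6-null values (58.9 to 99.5 CPM) all lie above the 6 wild-type values (36.2 to 57.1 CPM).

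Compared per length of transcript, the effectors covered a wide range. TPM, a level in which counts are divided by the combined length of a gene's annotated exons and scaled to a fixed total, averaged 81.6 ± 18.1 for Pip5k1c over the 12 tumors (SD, n = 12 here and in the next sentences). Pip5k1a followed at 54.7 ± 9.77 and Spag9 at 45.9 ± 9.23 TPM. Pld2 was at 31.0 ± 7.77, Mapk8ip3 at 26.1 ± 4.29 and Rab11fip3 at 14.5 ± 2.19 TPM. Exoc5 was at 10.2 ± 1.48 and Pld1 at 9.71 ± 2.93 TPM. Pip5k1b, at 1.74 ± 1.51 TPM, and Rab11fip4, at 0.781 ± 0.459 TPM, were the scarce members. In this order Pip5k1a and Spag9, Pld2 and Mapk8ip3, Exoc5 and Pld1, and Pip5k1b and Rab11fip4 were neighbours whose means differed by less than the larger of their SDs. The order depends on the length used: with the longest annotated transcript Pld1 averaged 19.9 TPM and stood above Rab11fip3 at 14.3 TPM, and Spag9, at 53.6 TPM, stood above Pip5k1a at 50.1 TPM.

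The phospholipases D cut phosphatidylcholine into phosphatidic acid and choline, and both are known as ARF6 effectors. Each enzyme carries a pair of HKD motifs, named for the histidine, lysine and aspartate of the pattern HxKxxxxD, which together form the catalytic site. The codons of these motifs are shown because they encode the catalytic residues of the gene nearest to the threshold and of its paralog. Sequences are of the coding strand, from GENCODE M21 transcripts on GRCm38, with the histidine, lysine and aspartate codons in capitals.
Pld2 first motif, codons 442 to 449 of 944: CACgagAAGctcctggtggtaGAC
Pld1 first motif, codons 464 to 471 of 1074: CATgagAAGcttgtcattatcGAC
Pld2 second motif, codons 767 to 774 of 944: CACagcAAGatgctcattgcgGAT
Pld1 second motif, codons 896 to 903 of 1074: CACagcAAGttgttaattgctGAC
Of the 24 bases, 16 were identical between the genes in the first motif and 19 in the second. Over the whole coding sequences 66.0% of aligned bases were identical, and the longest exact run shared by the coding sequences was 20 bases.

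Pld2, on chromosome 11 at 70540064 to 70558110 of GRCm38, had 58.9 CPM (lowest), 69.6 CPM (median) and 99.5 CPM (highest) in Arf6-null tumors, against 36.2, 50.3 and 57.1 CPM in wild-type tumors. All 6 Arf6-null tumors lay above all 6 wild-type tumors, with replicate 4 highest among Arf6-null tumors and replicate 6 lowest. Groups without overlap, in either direction, were found for 2.36% of tested genes, and Pld2 was the 1 of the 10 effectors among them. The log2 fold change was 0.59 (SE 0.15, 95% interval 0.26 to 0.93), a 1.51-fold difference of means, with an edgeR adjusted p = 0.0629 (unadjusted 0.0021). Its exons share 438 bases with the pseudogene Gm10418 on the other strand, which had 11 counts over the 12 libraries. The separation depended on the scaling. It held in CPM by median-of-ratios scaling, with 58.8 to 98.8 CPM in Arf6-null and 36.0 to 56.8 CPM in wild-type tumors. By upper-quartile scaling it held as well, with 60.4 to 93.8 CPM in Arf6-null and 37.0 to 59.7 CPM in wild-type tumors. In TPM, 3 of 6 Arf6-null tumors were above every wild-type tumor, with 28.5 to 47.8 TPM in Arf6-null and 21.1 to 31.6 TPM in wild-type tumors, and with CPM by plain library totals 4 of 6 were. The gene passed without Arf6-null replicate 6 (log2 fold change 0.65, edgeR adjusted p = 0.0434), a fit in which 4.12% of all genes passed, and in no other fit that left out 1 library. Without wild-type replicates 3, 4 and 5, where muscle markers were highest, the log2 fold change was 0.53 (edgeR adjusted p = 0.247).

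Pld1, on chromosome 3 at 27938695 to 28133362, had 29.3, 39.2 and 55.3 CPM (lowest, median, highest) in Arf6-null tumors, against 15.6, 40.2 and 59.3 CPM in wild-type tumors. The groups overlapped fully, and wild-type replicates 4 and 5 gave both the lowest and the highest value of the series. Its log2 fold change was 0.09 (95% interval -0.48 to 0.67, edgeR adjusted p = 0.861). Pld2 made up 78.7 ± 4.96% of the summed TPM of the pair in Arf6-null and 72.7 ± 9.85% in wild-type tumors (SD, n = 6 each; no test was made of shares). Ranges were 70.7 to 85.5% in Arf6-null and 61.4 to 88.4% in wild-type tumors, and per length Pld2 was above Pld1 in every tumor. With the longest transcript as length the lowest wild-type share was 50.4%, in replicate 5, where Pld2 was at 31.4 TPM and Pld1 at 30.9 TPM.

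**Figure D2:**
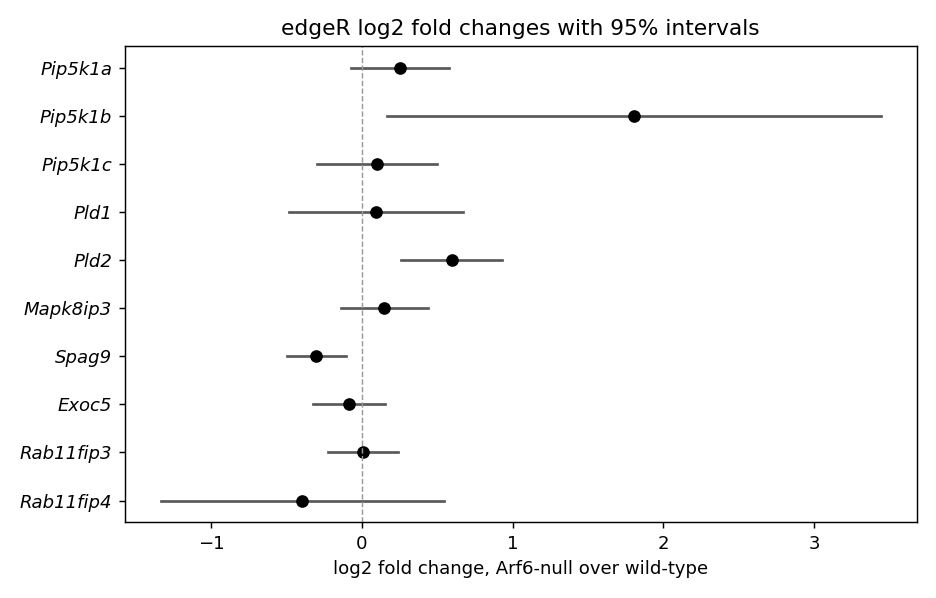
edgeR log2 fold changes of the 10 genes, Arf6-null over wild-type, with 95% intervals (n = 6 each). The intervals of Pip5k1b, Pld2 and Spag9 leave out 0, and none of the 10 passes after adjustment over all 16225 tested genes.

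The JIP scaffolds Mapk8ip3 (JIP3) and Spag9 (JIP4) link endosomes to kinesin-1 and dynactin, and ARF6-GTP is known to control which motor they engage. Spag9, on chromosome 11 at 93996091 to 94126085, had 132, 142 and 164 CPM (lowest, median, highest) in Arf6-null tumors, against 152, 178 and 206 CPM in wild-type tumors. The groups touched: 5 of 6 Arf6-null tumors lay below every wild-type tumor, and replicate 5 was the exception. In CPM, all 6 Arf6-null tumors lay below every wild-type tumor for 1.21% of tested genes. In TPM, all 6 lay below for Spag9, with 35.4 to 46.1 TPM in Arf6-null and 46.8 to 66.9 TPM in wild-type tumors. All 6 also lay below in CPM by plain library totals, at 126.7 to 159.0 in Arf6-null and 163.8 to 217.9 in wild-type tumors. By median-of-ratios or upper-quartile scaling, 5 of 6 did. The share of all genes was not counted on these scales. The TPM scale also lowered Rab11fip3 in Arf6-null relative to wild-type tumors, from 31.6 and 31.4 CPM to 13.8 and 15.2 TPM. The log2 fold change of Spag9 was -0.30 (SE 0.09, 95% interval -0.50 to -0.10), with an edgeR adjusted p = 0.0862. It kept its sign when each library was left out (-0.34 to -0.25) and passed in none of these 12 fits.

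Mapk8ip3, on chromosome 17 at 24892153 to 24936977, had 101.5, 117.5 and 164 CPM (lowest, median, highest) in Arf6-null tumors, against 97.2, 109.9 and 147 CPM in wild-type tumors. Values overlapped in most of their range, with Arf6-null replicate 5 and wild-type replicate 2 highest in their groups. The log2 fold change was 0.15 (95% interval -0.14 to 0.44, edgeR adjusted p = 0.532). Mapk8ip3 made up 40.0 ± 2.81% of the summed TPM of the JIP pair in Arf6-null tumors and 33.0 ± 3.64% in wild-type tumors (SD, n = 6 each). The ranges of this share, 35.6 to 43.5% in Arf6-null and 29.4 to 38.2% in wild-type tumors, overlapped. With the longest transcript as length the share was 46.6 ± 2.92% in Arf6-null and 39.2 ± 3.91% in wild-type tumors. Its highest Arf6-null value was then 50.2%. Exons of Mapk8ip3 share 1557 bases with Eme2 on the same strand and 1309 bases with Mrps34 on the other strand, so its counts can be affected by how such reads were assigned. On the other strand it also shares 577 exon bases with Nme3, a gene with 212 counts over the 12 libraries. Eme2 was at 14.1 ± 2.26 CPM in Arf6-null and 14.1 ± 0.927 CPM in wild-type tumors, and Mrps34 at 31.5 ± 4.81 and 26.3 ± 3.99 CPM in Arf6-null and wild-type tumors.

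The PIP5 kinases add a phosphate to phosphatidylinositol 4-phosphate and are the main source of PIP2 at the plasma membrane. Pip5k1c and Pip5k1a carried nearly all of the transcript. Pip5k1c made up 57.0 ± 5.78% of the summed TPM of the 3 genes in Arf6-null and 60.7 ± 3.10% in wild-type tumors, and Pip5k1a 41.2 ± 6.31% and 38.7 ± 3.38% in Arf6-null and wild-type tumors. Pip5k1b made up 1.80 ± 0.973% in Arf6-null tumors and 0.570 ± 0.467% in wild-type tumors (SD, n = 6 each). The coding sequences of each pair among the 3 kinases were 71.5 to 72.2% identical, with exact shared runs of at most 32 bases.

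Pip5k1a, on chromosome 3 at 95058530 to 95106930, had 65.1, 80.9 and 100.3 CPM (lowest, median, highest) in Arf6-null tumors, against 57.0, 68.2 and 91.3 CPM in wild-type tumors. Arf6-null replicates 4 and 5 exceeded every wild-type tumor, and the rest overlapped. Its log2 fold change was 0.25 (95% interval -0.07 to 0.57, edgeR adjusted p = 0.334). Pip5k1c, on chromosome 10 at 81292963 to 81319973, had 104.1, 147.5 and 234 CPM in Arf6-null tumors, against 111.5, 136 and 190.5 CPM in wild-type tumors. Arf6-null replicate 3 held the highest and replicate 6 the lowest value, on either side of the wild-type range. The log2 fold change of 0.10 (95% interval -0.30 to 0.50, edgeR adjusted p = 0.775) turned to -0.057 without Arf6-null replicate 3.

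Pip5k1b, on chromosome 19 at 24294794 to 24555872, had 0.287, 3.97 and 5.79 CPM (lowest, median, highest) in Arf6-null tumors, against 0.112, 0.712 and 2.61 CPM in wild-type tumors. These values rest on 11 to 211 counts in Arf6-null and 3 to 79 counts in wild-type tumors. Arf6-null replicates 2 to 5 were above every wild-type tumor, and replicate 6 lay within the wild-type range, below its median. The log2 fold change was 1.80 (SE 0.75, 95% interval 0.16 to 3.44), with an edgeR adjusted p = 0.176. Its spread was among the wider ones, with a gene-wise dispersion above that of 93.7% of tested genes. With Y-linked expression as a covariate the log2 fold change was 0.75 (edgeR adjusted p = 0.454). Arf6-null replicate 6 and wild-type replicates 3, 5 and 6, the tumors nearly without Y-linked counts, held the 4 lowest values of Pip5k1b. Fam122a, a gene inside the span of Pip5k1b on the same strand that shares no exon base with it, was at 10.6 ± 1.25 CPM in Arf6-null and 12.5 ± 0.857 CPM in wild-type tumors.

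**Figure D3:**
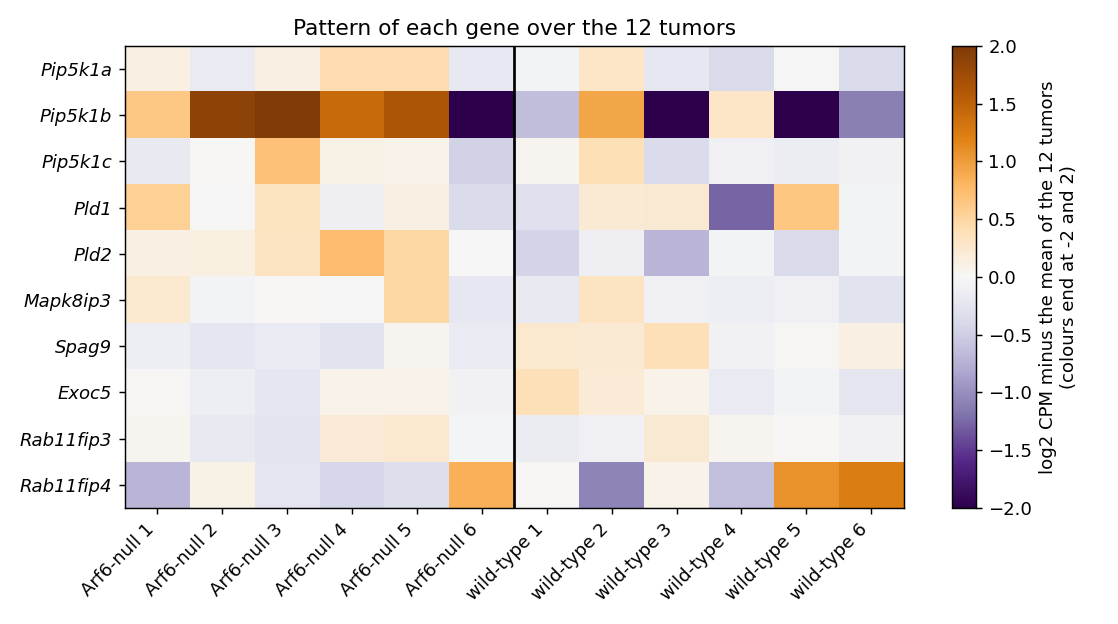
log2 CPM of each gene minus its mean over the 12 tumors, Arf6-null replicates on the left of the line and wild-type replicates on the right; colours end at -2 and 2. Pip5k1b has the strongest contrast, high in Arf6-null replicates 2 to 5 and low in Arf6-null replicate 6 and wild-type replicates 3 and 5.

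Exoc5 encodes SEC10, the exocyst subunit that binds ARF6 and brings recycling vesicles to the plasma membrane. It lies on chromosome 14 at 49004090 to 49066653 and had 48.7, 56.2 and 60.9 CPM (lowest, median, highest) in Arf6-null tumors, against 49.2, 58.0 and 74.2 CPM in wild-type tumors. Wild-type replicates 1, 2 and 3 exceeded every Arf6-null tumor, and wild-type replicates 4, 5 and 6 lay within the Arf6-null range. The log2 fold change was -0.09 (95% interval -0.33 to 0.15, edgeR adjusted p = 0.668). Exons of Exoc5 share 528 bases with Ap5m1 on the other strand, which was at 24.4 ± 1.87 CPM in Arf6-null and 28.2 ± 3.48 CPM in wild-type tumors.

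Rab11fip3 and Rab11fip4 encode FIP3 and FIP4, adaptors that bind RAB11 and ARF6 at once and carry recycling endosomes to the cleavage furrow of dividing cells. Rab11fip3, on chromosome 17 at 25989036 to 26069555, varied least of the 10 across tumors (root mean square spread 0.154 on the log2 scale), with 26.1, 31.3 and 36.9 CPM (lowest, median, highest) in Arf6-null tumors, against 28.4, 30.7 and 36.6 CPM in wild-type tumors. The groups overlapped, with 2 Arf6-null tumors below and 1 above the wild-type range. Its log2 fold change was 0.0052, and the 95% interval of -0.23 to 0.24 bounds a difference of either sign (edgeR adjusted p = 0.982). Its exons share 515 bases with the antisense gene 1700022N22Rik, which had 109 counts over the 12 libraries.

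Rab11fip4, on chromosome 11 at 79591212 to 79698023, had 0.954, 1.30 and 2.93 CPM (lowest, median, highest) in Arf6-null tumors, against 0.728, 1.67 and 3.89 CPM in wild-type tumors, on 19 to 112 counts per library. Arf6-null replicate 6 and wild-type replicates 5 and 6 held the 3 highest values. Its log2 fold change was -0.40 (95% interval -1.33 to 0.54, edgeR adjusted p = 0.615). Summed CPM of 7 T cell markers were 20.8 to 133 in Arf6-null and 27.1 to 183 in wild-type tumors, none of the markers being at 0, and were highest in the same 3 tumors. Those tumors were also nearly without Y-linked counts, as was wild-type replicate 3, at 1.70 CPM of Rab11fip4. With Y-linked expression as a covariate the log2 fold change was 0.32 (edgeR adjusted p = 0.598). The part of T cells in the level of Rab11fip4 was not tested, nor was the reason for the Y-linked pattern. In bulk tumors, fewer cells of a type and less RNA per cell cannot be told apart. Rab11fip3 made up 95.5 ± 2.12% of the summed TPM of this pair in Arf6-null and 94.3 ± 3.51% in wild-type tumors (SD, n = 6 each).

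The genes around these effectors were counted in 7 pathway lists, which hold 127 genes, 120 of them tested. At the same threshold, 2 of them rose, where 0.586% of all tested genes did, and 1 fell, where 0.561% did. Together these were 2.50% of the list genes, against 1.15% of all tested genes. The median log2 fold change was 0.10 over the 10 effectors, -0.03 over the 120 list genes and -0.03 over all tested genes. None of the 3 calls survived in every fit that left out 1 library: Agpat2 was called in 5, Pik3r2 in 3 and Plcb4 in 3 of the 12 fits. Over all genes, these fits called 25 to 766, against 186 with all 12 tumors. Without wild-type replicates 3, 4 and 5, and also with the muscle score or Y-linked expression as a covariate, 0 of the list genes were called. Of all genes tested in these fits, 35 of 16992, 19 of 16225 and 30 of 16225 were called, in that order.

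Among 17 tested phosphoinositide kinases outside the PIP5K1 family, 1 rose and 16 did not pass. Pik3r2, a regulatory subunit of class I PI3-kinase, which uses PIP2 as its substrate, rose to 163 to 198 CPM in Arf6-null tumors, against 115 to 147 CPM in wild-type tumors (log2 fold change 0.43 ± 0.09, SE; adjusted p = 0.0392 with edgeR). The groups did not overlap. Pik3cg, the PI3-kinase gamma catalytic subunit of blood cells, ran from 6.93 to 17.6 CPM in Arf6-null and from 11.1 to 28.9 CPM in wild-type tumors (edgeR adjusted p = 0.117).

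Of 22 tested PIP2 phosphatases and phospholipases C, which consume PIP2, 1 fell and 21 did not pass. Plcb4, a phospholipase C activated by Gq-coupled receptors, fell to 7.89 to 17.5 CPM in Arf6-null tumors, against 21.6 to 57.3 CPM in wild-type tumors (log2 fold change -1.25 ± 0.27, SE; adjusted p = 0.0473 with edgeR). Its groups did not overlap either. Inpp5d, which encodes the SHIP1 phosphatase of blood cells, was at 39.1 ± 7.77 CPM in Arf6-null and 64.1 ± 23.6 CPM in wild-type tumors (edgeR adjusted p = 0.107). Beside Pik3cg and Inpp5d, summed CPM of 8 macrophage markers were 1500 to 2511 in Arf6-null and 1281 to 3795 in wild-type tumors, and the part of these cells was not tested.

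Among 21 tested genes of the wider PLD family and of phosphatidic acid metabolism, 1 rose and 20 did not pass. Agpat2 encodes an enzyme of the endoplasmic reticulum that makes phosphatidic acid from lysophosphatidic acid, a route separate from phospholipase D. It rose to 49.2 to 129 CPM in Arf6-null tumors, against 35.8 to 54.9 CPM in wild-type tumors (log2 fold change 1.17 ± 0.20, SE; adjusted p = 0.0263 with edgeR). Arf6-null replicate 3 was the tumor that overlapped wild type. Agpat4, which encodes a related acyltransferase, was at 72.2 ± 7.89 CPM in Arf6-null and 49.7 ± 9.26 CPM in wild-type tumors (edgeR adjusted p = 0.0562).

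**Figure D4:**
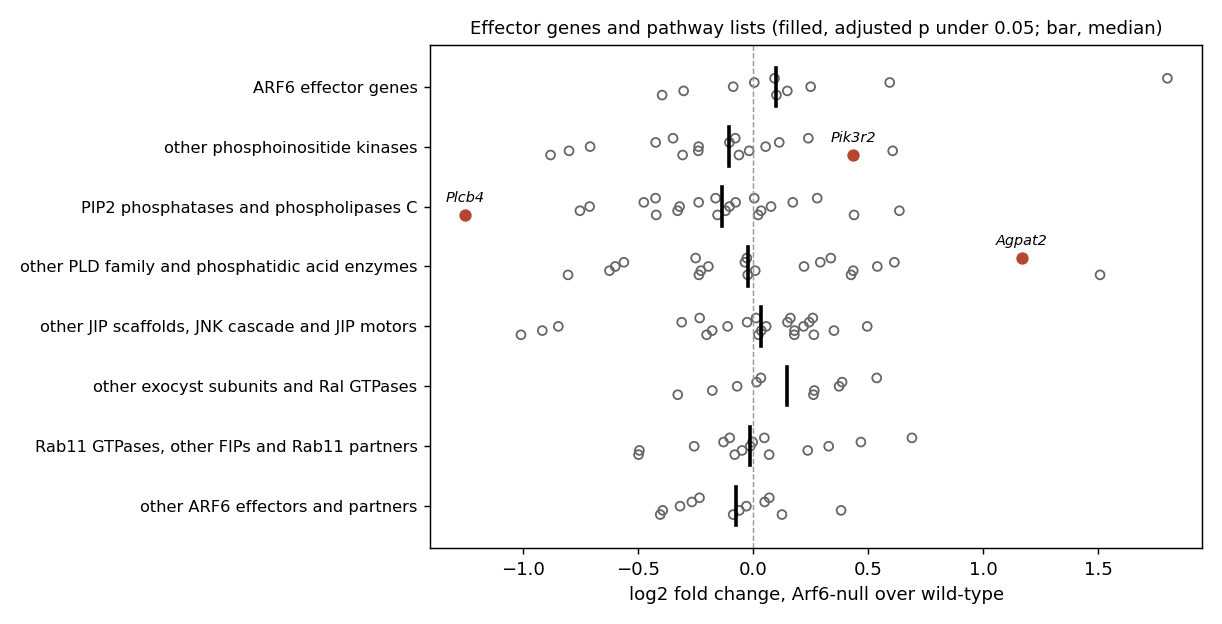
edgeR log2 fold changes, Arf6-null over wild-type, of the tested members of the effector set and of the 7 pathway lists; filled points have an adjusted p under 0.05 and bars mark the median. The filled points are Pik3r2 (0.43), Plcb4 (-1.25) and Agpat2 (1.17), and the effector set has no filled point.

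In the remaining 4 lists no gene passed edgeR's test. At an unadjusted p under 0.05 there were 5 of 23 JNK cascade and motor genes, 2 of 10 exocyst and Ral genes, 2 of 15 Rab11 partners and 2 of 12 other ARF6 partners, all smaller shares than the 23.4% of all tested genes. In the 3 lists of lipid enzymes, the same count was 6 of 17 phosphoinositide kinases (35.3%), 7 of 22 phosphatases and phospholipases C (31.8%) and 8 of 21 phosphatidic acid genes (38.1%). Kif5a, a kinesin-1 heavy chain, was at 1.36 ± 0.257 CPM in Arf6-null and 2.74 ± 0.901 CPM in wild-type tumors (edgeR adjusted p = 0.0594). It had only 30 to 123 counts per library. Kif5b, a kinesin-1 heavy chain added here for its higher level, was at 162 ± 21.1 and 186 ± 32.9 CPM in Arf6-null and wild-type tumors (edgeR adjusted p = 0.378). Dctn3, a dynactin subunit, was at 40.7 ± 3.45 CPM in Arf6-null and 31.9 ± 6.25 CPM in wild-type tumors (edgeR adjusted p = 0.123). Those are the motor systems that JIP scaffolds bind. Exoc6b, an exocyst subunit of the SEC15 type, was at 92.9 ± 19.4 CPM in Arf6-null and 64.0 ± 14.0 CPM in wild-type tumors (edgeR adjusted p = 0.109). Ralb, a GTPase that binds the exocyst, was at 105.1 ± 16.2 and 80.4 ± 13.1 CPM in Arf6-null and wild-type tumors (edgeR adjusted p = 0.115). The other exocyst genes had log2 fold changes between -0.33, in Exoc6, and 0.27, in Exoc1. Myo5a, a myosin that moves Rab11 vesicles on actin, ran from 62.3 to 93.4 CPM in Arf6-null and from 95.5 to 151.9 CPM in wild-type tumors, without overlap (edgeR adjusted p = 0.0674). Rab11b, a recycling GTPase, was at 75.0 ± 15.2 and 54.2 ± 4.54 CPM in Arf6-null and wild-type tumors (edgeR adjusted p = 0.0754). Among the other partners, Arhgap21, a RhoGAP that binds ARF GTPases, was at 69.3 ± 4.32 CPM in Arf6-null and 91.7 ± 15.0 CPM in wild-type tumors (edgeR adjusted p = 0.067). Gga1, an adaptor of Golgi and endosomes, was at 100.6 ± 17.9 and 77.1 ± 11.1 CPM in Arf6-null and wild-type tumors (edgeR adjusted p = 0.119).

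Leaving out each library in turn moved the adjusted p of the 3 members nearest to the threshold. For Pld2 it ran from 0.0434 to 0.127, for Spag9 from 0.0737 to 0.176 and for Pip5k1b from 0.0883 to 0.287 over the 12 edgeR fits. The lowest values for Pld2 and Pip5k1b came without Arf6-null replicate 6. Next was the fit without wild-type replicate 2, with an edgeR adjusted p of 0.0516 for Pld2 and 0.0886 for Pip5k1b. Those fits also called more genes in all, 672 of 16308 and 766 of 16321 in that order, against 186 of 16225 with all 12 tumors.

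**Figure D5:**
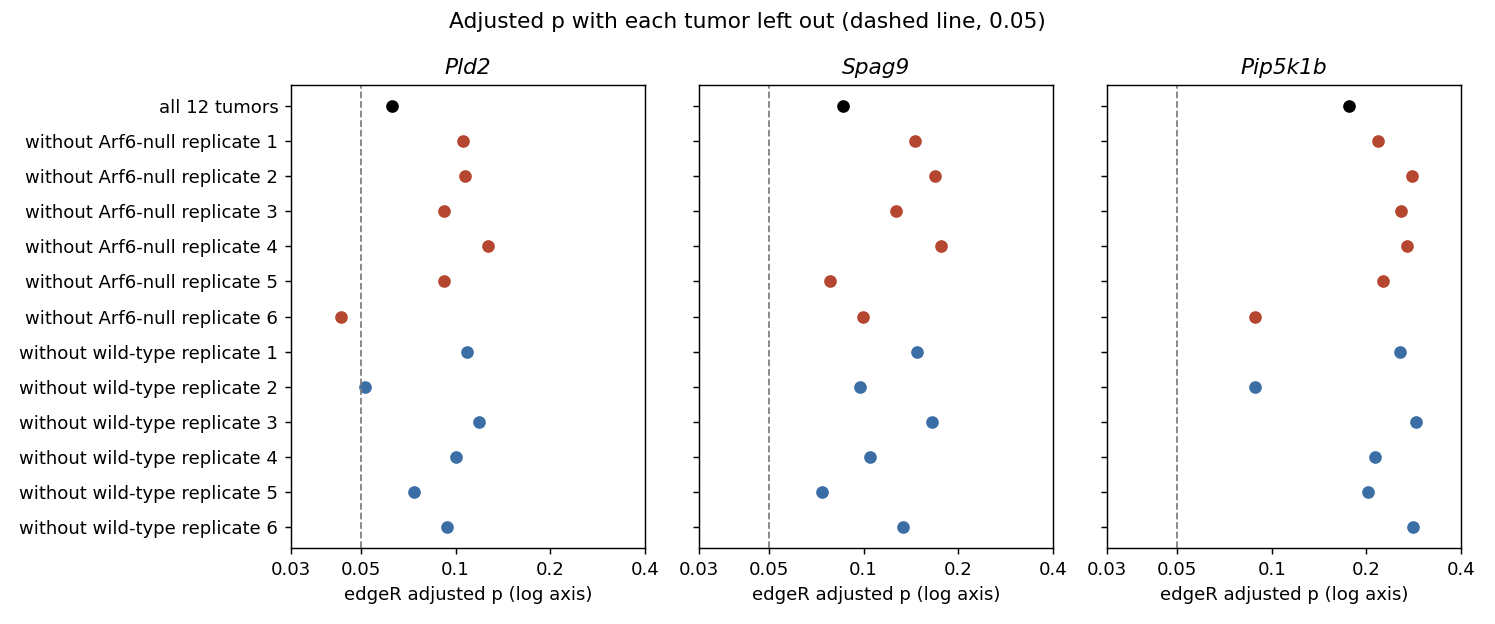
edgeR adjusted p (log axis) of Pld2, Spag9 and Pip5k1b with all 12 tumors and with each tumor left out; the dashed line is 0.05. The single point left of the line is Pld2 without Arf6-null replicate 6, at 0.0434.

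Likeness between genes was measured as the root mean square difference of log2 CPM, each gene centred on its mean, over the 12 tumors. The tested genes nearest to Pld2 were Hps1 and Galk1, both at 0.169, where the median over all tested genes was 0.547. Galk1 itself rose in Arf6-null tumors (log2 fold change 0.61, adjusted p = 0.0174 with edgeR). Spag9 was nearest to Pja2 (0.0696) and Ythdf3 (0.0791), against a median of 0.430. Bag3 was among the 2 genes nearest to Pip5k1a (0.114), against a median of 0.469. For Pip5k1b the nearest genes were Lect2 (0.794) and Sgk2 (0.842), far from it on the scale of the others, with a median of 1.71. Rab11fip4 was nearest to Sh2d1a (0.218), which encodes the SAP adaptor of T and NK cells, and to Pla2g16 (0.246), against a median of 0.803. The nearest genes were Dnmbp (0.147) and Dnajc14 (0.150) for Pip5k1c, and Ppp1r2 (0.195) and Sept8 (0.239) for Pld1. They were Npepps (0.0912) and Slc41a1 (0.0973) for Mapk8ip3, Dnajc1 (0.0625) and Tmed7 (0.0739) for Exoc5, and Arhgap35 (0.0794) and Edc4 (0.0853) for Rab11fip3. Between effectors, the closest pairs were Pip5k1a with Mapk8ip3, at 0.173, and Spag9 with Exoc5, at 0.182.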

How the data were processed

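Raw counts of reads per Ensembl gene were deposited by the authors for 12 libraries, without normalization. Per the submitters' processing notes, STAR 2.7.3a, featureCounts 1.6.3 and DESeq2 1.26.0 were used with GRCm38 (mm10). For strandedness, multi-mapping and annotation, the settings were not given in the sources used here. Columns were matched to samples by library name, groups by genotype. Symbols, positions, lengths and transcript sequences came from GENCODE M21; 260 identifiers had no entry. No pair of libraries agreed within sampling noise (closest chi-square per degree of freedom 81.4).

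Genes were filtered with filterByExpr (minimum 10 counts; 16225 kept) and compared with edgeR 4.0.16 (TMM, robust quasi-likelihood F test, R 4.3.3), Benjamini-Hochberg over all tested genes, threshold 0.05. Standard errors came from the F statistic, intervals from its degrees of freedom. Log2 CPM used a prior count of 2. Alternatives used DESeq2 1.42.0, limma 3.58.1, other scalings, filters, covariates and left-out libraries. Functions were tested on simulated counts. The members and lists were chosen with earlier results of these data known. Named genes were all members, Arf6, genes overlapping a member, list genes past the threshold, the 2 of smallest p per list and the 2 nearest genes to each member by likeness; 1 of these is not reported here.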

Additional observations from a re-analysis of the deposited data

Results flagged for a closer look

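Each of 22 sets of 6 values (the 10 genes in either genotype and the library totals) was searched for a tumor far from the other 5, and 1 was found, where chance gives about 1 in 20. Mapk8ip3 was at 147.3 CPM in wild-type replicate 2, against 97.2 to 111.5 CPM in the other wild-type tumors. Arf6-null values of this gene reached 164 CPM.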

How the results depend on the processing

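No paired analysis was possible because the labels give no pairs, although the design text calls the tumors matched. Of 228 values of the members' log2 fold changes under the alternatives, 205 kept sign and call, 5 passed (Pld2 in 3, Spag9 in 2) and 18 turned sign. No call could be lost, since none was made in the main fit. Pld2 passed with DESeq2, without Arf6-null replicate 6 and at a threshold of 0.1. Spag9 passed with DESeq2 and at a threshold of 0.1. The values at a threshold of 0.1 repeat the main fit, so none of them could turn sign and only the cut-off differs. With DESeq2, 2 members, 12 list genes and 2241 genes in all were called; with a threshold of 0.1, 2, 9 and 1359; with limma-voom, 8 list genes and 996 in all; without a filter, 1 list gene. With Y-linked expression as covariate, the muscle score as covariate, or without wild-type replicates 3, 4 and 5, the list genes called were 0, 0 and 0, and all genes 30, 19 and 35. Leaving out 1 library gave 0 to 1 members, 0 to 7 list genes and 25 to 766 genes in all.

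Sign turned for members whose interval spans 0. Pip5k1c was at -0.094 with the Y-linked covariate, -0.12 with the muscle score and -0.044 without the 3 muscle-rich tumors, and ran from -0.057 to 0.20 with 1 library left out. Pld1 ran from -0.068 to 0.26. Rab11fip3 was at -0.049 with upper-quartile scaling, -0.032 with limma-voom, -0.037 with the 10 CPM filter and -0.038 with thinned counts, and ran from -0.042 to 0.060. Rab11fip4 turned to 0.32 with the Y-linked covariate and 0.0040 with the muscle score. The cause was not tested. Pip5k1b and Rab11fip4 were not tested under the 10 CPM filter. The comparison of Pld2 and Spag9 on other scales was added after seeing the data. Pip5k1b had 3 to 211 and Rab11fip4 19 to 112 counts per library, with dispersions above those of 93.7% and 80.3% of tested genes.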

Other observations

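Lpin3, a phosphatidate phosphatase gene of the phosphatidic acid list picked here after its values were seen, was at 14.5 CPM (lowest), 87.5 CPM (median) and 110.0 CPM (highest) in Arf6-null tumors, against 11.1, 18.6 and 62.8 CPM in wild-type tumors (log2 fold change 1.51, edgeR adjusted p = 0.123). Its lowest Arf6-null value was in replicate 6, as for Pip5k1b and Pld2.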
